A study of Homo sapiens with 4 samples.

Results

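The subject is the transcriptome of THP1, a human monoblastic line of acute myeloid leukemia (AML), in cells that received a control mimic. Mimics are short RNA duplexes made to act like a mature miRNA once inside a cell, and the negative control #1 mimic stands in for them in control cells. The members are the 2 arrays of control mimic cells among the 4 arrays of the series, 1 from each of 2 independent experiments. Both the control cells and the miR-511 mimic cells, whose 2 arrays are not described here, carry the same history. They received 30 nM of mimic once, were kept in DMEM/Ham's F12 medium with little serum and added albumin, and gave RNA on day 2. The control cells are therefore transfected cells in low-serum medium and not untouched THP1 cells, and both arrays come from 1 established line. With 1 group of 2 arrays there was no comparison to test. The values below are a description across genes, each gene being given by its signals in experiment 1 and experiment 2, in that order.

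THP1 carries the KMT2A-MLLT3 fusion, also called MLL-AF9, which joins the 5′ part of the histone methyltransferase gene KMT2A to the 3′ part of MLLT3. Fusion proteins of this kind recruit elongation factors and the methyltransferase DOT1L, and keep HOXA cluster genes and their partners active in leukemic cells. Monoblasts stand early in the monocyte lineage. Cells of this stage make the serine proteases of primary granules under transcription factors such as PU.1, the product of SPI1, and C/EBPα, while many receptors of mature monocytes and macrophages appear later.

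The arrays measured labelled RNA with 34127 different probes. A probe was counted as expressed when more than 50% of its spots were well above background on both arrays, and a gene when at least 1 of its probes was. A gene well above background in 1 experiment alone thus counts as not expressed. By this rule 22421 of 34111 probes with a value on both arrays (65.7%) and 14059 of 19632 measured genes (71.6%) were expressed. Counts of expressed genes in the lists below are to be read against this share of 71.6%. A gene's signal is that of its brightest probe, on a quantile normalized log2 scale. Its percentile is its place among all measured genes, from 0 for the dimmest to 100 for the brightest. Probes differ in how strongly they bind and are labelled, so a percentile ranks probe signals and is not a ranking of transcript numbers. The median signal was 9.69 among expressed genes and 1.68 among the others on the log2 scale. Genes that were not expressed reached percentile 41.1, the place of CCR3, which was well above background in experiment 1 alone. Expressed genes began at percentile 25.7, so that being expressed is a low bar. For that reason each gene list is also given by how many members reached the top 25% of all measured genes, a log2 signal of 10.88 or more, which 25.0% of the measured genes do by definition.

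Protein-coding genes were expressed more often than long noncoding RNA genes and pseudogenes. Of 18004 protein-coding genes, 13234 (73.5%) were expressed, with a median percentile of 52.5. Long noncoding RNA genes were expressed in 435 of 958 cases (45.4%) at a median percentile of 24.9, and transcribed pseudogenes in 303 of 522 cases (58.0%) at 34.5. Small nucleolar RNAs, which guide the modification of ribosomal RNA, were expressed in 27 of 39 cases (69.2%). Some small classes stood above the coding share, with 12 of 14 genes annotated as other noncoding RNA (85.7%) and 3 of 3 ribosomal RNA genes. Probes for features with no current gene symbol were well above background on both arrays in 3577 of 7460 cases (47.9%). By chromosome, the share of expressed protein-coding genes ran from 56.4% of 692 genes on chromosome 4 and 62.4% of 699 on chromosome X to 84.1% of 747 genes on chromosome 16 and 82.5% of 1307 on chromosome 19. The share over the 17970 coding genes with a chromosome in the files was 73.5%.

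The brightest signals came mostly from genes of the translation apparatus. EEF1A1, which carries aminoacyl-tRNAs to the ribosome, ranked 1 on both arrays (18.62 and 18.62). CTSG, the gene of the granule protease cathepsin G, ranked 2 of all measured genes on both arrays (18.58 and 18.58). Quantile normalization gives the same rank the same value, hence the equal numbers. Others among the 20 brightest were the ribosomal protein genes RPS2, RPL13, RPS27, RPLP0, RPS21, RPL19, RPL23, RPL6, RPS6, RPL7A, RPL10A, RPLP2 and RPS13, the ribosomal RNA gene RNA28SN5, the actin gene ACTB, and the lysosomal transporter gene SLC66A1. The mean signals of these ribosomal protein genes lay between 17.96 for RPS13 and 18.46 for RPS2 on the log2 scale. SLC66A1 rests on a single probe (18.02 and 18.07).

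Of 44 measured cytosolic ribosomal protein genes, 44 were expressed and 44 were in the top 25%, with a median percentile of 99.8. The lowest of them was RPL22 (14.56 and 14.58, percentile 96.9). The 13 measured reference genes of RT-qPCR were expressed too, with ACTB and the cyclophilin gene PPIA (17.48 and 17.69) among the brightest. TBP, the TATA-binding protein gene, ranked lowest among them (10.39 and 10.42, percentile 70.5) and was the 1 member outside the top 25%.

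The label was checked against markers of the line. SPI1, the gene of the myeloid master regulator PU.1, gave 13.02 and 12.79 on the log2 scale (mean 12.91 ± 0.16, SD, n = 2), at percentile 90.4. CD33, a sialic acid-binding receptor of myeloid cells and an antibody target in AML, gave 13.70 and 13.72 (13.71 ± 0.01, SD, n = 2), at percentile 94.2. HOXA9, the homeobox gene most closely tied to KMT2A fusions, gave 12.69 and 12.66 with its brighter probe (12.68 ± 0.02, SD, n = 2), at percentile 89.1, and 10.17 and 10.13 with its other probe. The SPI1 probe lies at chr11:47376464-47376523, the CD33 probe at chr19:51742998-51743057 and the brighter HOXA9 probe at chr7:27202588-27202647, all in hg19. LYZ, the lysozyme gene, was not analysed here. These markers were thus expressed on both arrays and differed little between the experiments.

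Several primary granule genes were among the brightest of all. Of 20 measured genes for granule and secretory proteins of myeloid cells, 17 were expressed and 11 were in the top 25%, with a median percentile of 82.1 (81.8 and 82.3 on the single arrays). Behind CTSG came ELANE, the gene of neutrophil elastase, with 16.97 and 17.01. CFD, the gene of complement factor D, gave 16.96 and 16.80. The proteoglycan gene SRGN, whose product packs proteases into granules, gave 16.88 and 16.71. AZU1, the gene of the antimicrobial protein azurocidin, gave 16.86 and 16.68, and PRTN3, the gene of proteinase 3, gave 16.27 and 16.15. These 6 genes ranked at percentile 99.1 or above. MPO, the myeloperoxidase gene, stood lower at 11.28 and 11.52 (percentile 79.5).

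Other granule and secretory genes were mixed. RNASE2, an eosinophil-type ribonuclease gene, gave 15.26 and 14.94, the protease inhibitor gene CST3 gave 14.22 and 14.00, and the calprotectin gene S100A8 gave 13.56 and 13.60. Its partner S100A9 stood at 10.80 and 10.77, just outside the top 25% (percentile 74.0). The secondary granule gene LTF, for lactoferrin, was not well above background (1.10 and 2.51), nor was BPI, for a bactericidal protein (1.86 and 1.51). VCAN, for the proteoglycan versican (3.97 and 2.66), was well above background in experiment 1 alone. FCN1, for the monocyte lectin M-ficolin, passed through 1 of its 2 probes (3.27 and 3.64).

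The bases before the start are shown for granule genes and for the surface and fusion target markers described above. Each run holds 250 bases that end just before the annotated start, from RefSeq windows of GRCh38.p14, read 5′ to 3′ on the strand of the gene. Capitals mark the matches to letters searched on both strands: GAGGAA and GGAAGT, which overlap in GAGGAAGT and are contained in many sites of ETS factors such as PU.1, the TATA box letters TATAAA, the CCAAT box letters CCAAT, the GC box letters GGGCGG, and TTGCGCAA, a palindrome bound by C/EBP factors. CTSG lies on the minus strand at chr14:24576251-24576500, AZU1 on the plus strand at chr19:827587-827836, PRTN3 on the plus strand at chr19:840749-840998, CD33 on the plus strand at chr19:51224830-51225079 and HOXA9 on the minus strand at chr7:27165538-27165787.
CTSG: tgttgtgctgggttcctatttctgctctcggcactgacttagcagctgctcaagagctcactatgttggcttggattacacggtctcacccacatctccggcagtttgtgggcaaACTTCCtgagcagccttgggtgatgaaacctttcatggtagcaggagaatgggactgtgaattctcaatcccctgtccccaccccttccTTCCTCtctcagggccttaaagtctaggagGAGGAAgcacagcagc
AZU1: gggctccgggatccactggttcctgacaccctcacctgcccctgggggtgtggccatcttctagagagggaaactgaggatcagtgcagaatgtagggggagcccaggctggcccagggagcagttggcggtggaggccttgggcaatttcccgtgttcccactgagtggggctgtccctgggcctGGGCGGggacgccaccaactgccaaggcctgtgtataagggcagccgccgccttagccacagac
PRTN3: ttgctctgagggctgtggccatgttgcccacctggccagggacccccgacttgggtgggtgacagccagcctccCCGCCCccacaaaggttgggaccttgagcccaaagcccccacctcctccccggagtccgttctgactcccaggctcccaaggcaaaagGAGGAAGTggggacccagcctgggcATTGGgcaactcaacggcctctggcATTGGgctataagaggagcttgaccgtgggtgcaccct
CD33: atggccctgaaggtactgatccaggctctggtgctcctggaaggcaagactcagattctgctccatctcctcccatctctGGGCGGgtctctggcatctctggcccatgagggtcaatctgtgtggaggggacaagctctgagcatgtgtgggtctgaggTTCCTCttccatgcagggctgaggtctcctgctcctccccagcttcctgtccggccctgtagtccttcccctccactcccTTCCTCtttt
HOXA9: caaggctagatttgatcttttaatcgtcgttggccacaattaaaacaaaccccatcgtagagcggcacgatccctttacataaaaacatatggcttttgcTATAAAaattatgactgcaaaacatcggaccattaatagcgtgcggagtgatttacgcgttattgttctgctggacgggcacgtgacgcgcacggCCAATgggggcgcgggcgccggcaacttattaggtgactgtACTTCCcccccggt
GAGGAA was found at 16 and, on the other strand, at 46 bases before the CTSG start. In PRTN3 the letters GAGGAAGT began 88 bases before the start, and CD33 held GAGGAA on the other strand at 90 and at 10 bases. AZU1 held 1 match, a GGGCGG at 64 bases. HOXA9 held TATAAA at 150, CCAAT at 55 and GGAAGT on the other strand at 14 bases, and it was the richest in CG pairs, with 20 against 3 in CTSG, 7 in AZU1, 6 in PRTN3 and 2 in CD33.

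Myeloid transcription factor genes were expressed throughout the list. All 26 measured members were expressed, 20 of them in the top 25%, and the median percentile was 86.3. MYB, which sustains progenitor growth, led with 16.63 and 16.29. CEBPA, which directs granulocyte and monocyte commitment, gave 15.51 and 15.62, and IRF8, which favours the monocyte and dendritic fate, gave 14.32 and 14.33. Factors that accompany macrophage maturation differed in level, with IRF5 at 14.26 and 14.06, CEBPB at 12.09 and 11.85, KLF4 at 7.44 and 7.42, MAF at 5.33 and 5.26 and EGR2 at 4.44 and 5.59. EGR1, an immediate early gene, differed by more than 1 on the log2 scale between the experiments (10.74 and 11.94), as did EGR2, both being brighter in experiment 2.

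Monocyte surface proteins were less uniform. Of 31 measured genes 26 were expressed, 10 in the top 25%, at a median percentile of 58.8. ITGB2, the shared chain of the leukocyte integrins, led with 14.08 and 13.91, followed by CD33 and by CCR2, the receptor for the monocyte attractant CCL2 (13.25 and 13.25). CD14, the LPS co-receptor of mature monocytes, stood at 6.51 and 6.85 (percentile 43.5), and the integrin gene ITGAM at 7.51 and 7.32. The macrophage scavenger and mannose receptor genes CD163 (2.35 and 2.69) and MRC1 (2.21 and 1.10) were not well above background. The same held for the lectin receptor genes CLEC7A (1.43 and 1.67) and CLEC4E (0.94 and 0.95) and for FCGR3A, for the Fc receptor CD16 (1.07 and 1.10).

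**Figure D1:**
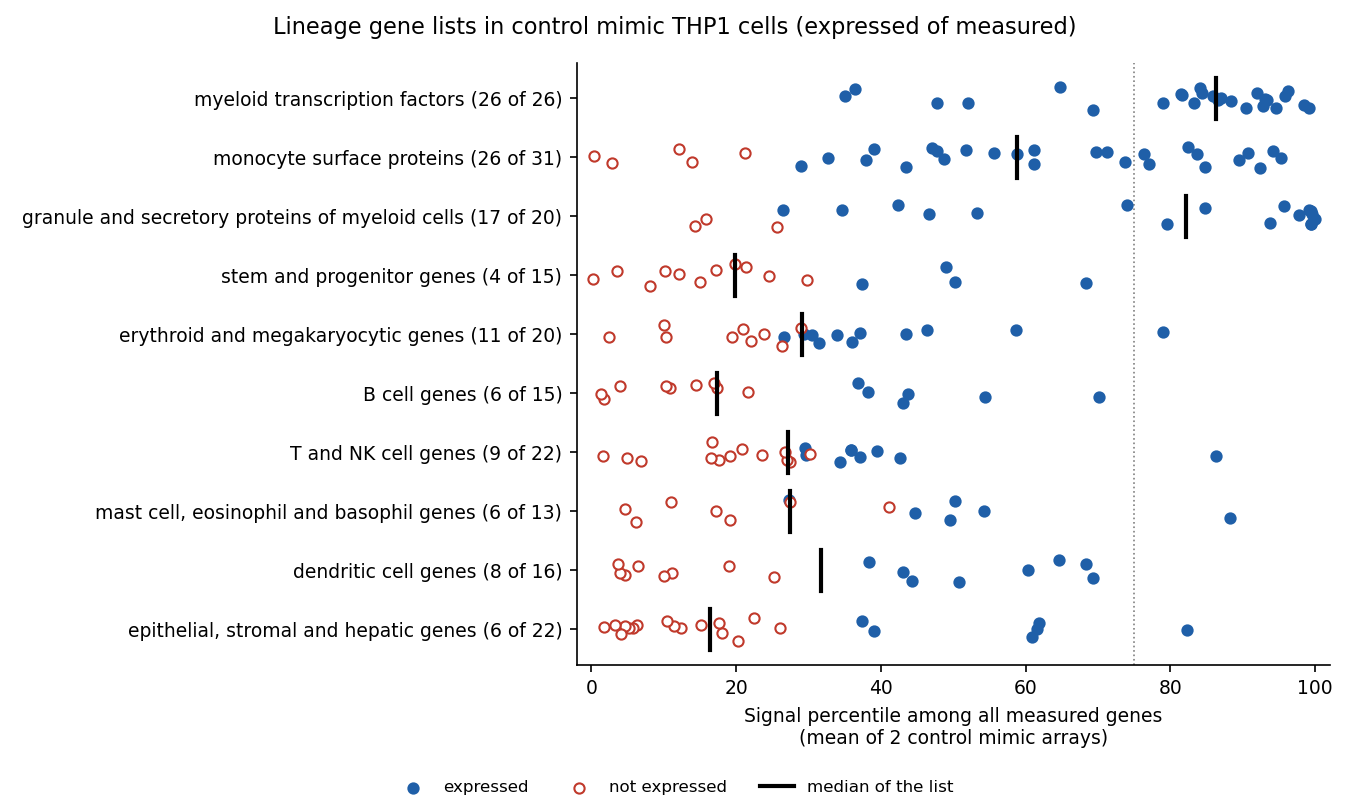
Signal percentile of each measured gene (points, mean of 2 control mimic arrays) in 10 lineage lists, with filled points for expressed genes, open points for the others, a bar at the list median and a dotted line where the top 25% begins. Myeloid transcription factors and granule proteins have medians of 86.3 and 82.1, while the 7 lists of other cell types and of stem cells have medians from 16.4 to 31.7.

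Stem and progenitor genes ranked low. Of 15 measured genes 4 were expressed and 0 reached the top 25%, at a median percentile of 19.9. With the looser flag for a positive and significant signal 9 passed. The 4 were the receptor kinase gene FLT3 (10.28 and 10.08), the transcription factor gene GATA2 (7.81 and 7.90), the protein C receptor gene PROCR (7.61 and 7.69) and HOPX, through 1 of 2 probes (5.60 and 5.44). CD34, the surface marker of progenitors, was not well above background (2.90 and 2.20), nor was ERG (1.42 and 1.45). KIT, the stem cell factor receptor gene, passed in experiment 1 alone (4.81 and 3.35).

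Genes of other blood lineages reached the expressed call less often than the 71.6% of all genes, and mostly at low signal. Of 20 erythroid and megakaryocytic genes 11 were expressed, with GP9, a platelet glycoprotein gene, as the 1 member in the top 25% (11.29 and 11.37). The erythropoietin receptor gene EPOR gave 9.04 and 9.03 and the erythroid factor gene KLF1 7.37 and 7.06, while GATA1 was not well above background (2.40 and 2.11). Neither were EPB42 (3.54 and 3.34), HBE1 (2.51 and 2.44), PPBP (1.54 and 1.35), HEMGN (1.24 and 1.63) and GYPB (1.05 and 1.08). ALAS2 (4.23 and 3.60) and PF4 (3.49 and 2.46) passed in experiment 1 alone, and TAL1 (1.11 and 4.17) in experiment 2 alone.

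Lymphoid lists showed single genes with a clear signal. Of 15 B cell genes 6 were expressed and 0 were in the top 25%. Among them were CD79A, a chain of the B cell receptor complex (10.33 and 10.37), the adaptor gene BLNK (6.49 and 6.94), TNFRSF13C (6.76 and 6.43), CD79B (5.69 and 5.66) and PAX5 (5.75 and 5.04). The B cell markers MS4A1 (2.86 and 2.32) and CD22 (1.03 and 1.02) were not well above background. Of 22 T and NK cell genes 9 were expressed, and NKG7, for a granule membrane protein, was the 1 in the top 25% (12.30 and 12.21). The looser flag passed 16. The other 8, TCF7, CD8A, GZMB, BCL11B, LCK, CD3D, CD3E and CD2, lay between percentile 29.5 and 42.7.

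Of 13 mast cell, eosinophil and basophil genes 6 were expressed. MS4A3, a gene of granulocyte and monocyte progenitors, was bright (12.63 and 12.45, percentile 88.2). The others were the granule protein genes PRG2 (7.66 and 9.27) and EPX (6.50 and 7.27), GATA2, MS4A2 (7.81 and 7.64) and HDC (3.58 and 3.63). Of 16 dendritic cell genes 8 were expressed, 0 in the top 25%. BATF3, a factor of cross-presenting dendritic cells, gave 10.26 and 10.27, FLT3 is shared with the stem cell list, and the IL-3 receptor gene IL3RA gave 9.74 and 9.76. The other 5 were TCF4, ZBTB46, CD209, XCR1 and CCR7, at percentiles 60.3, 50.8, 44.3, 43.0 and 38.3.

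In the list of epithelial, stromal and hepatic genes, 6 of 22 were expressed at a list median of percentile 16.4. PECAM1, an adhesion gene of endothelium that leukocytes also use, gave 11.82 and 11.65. The keratin genes KRT18 (9.55 and 9.25) and KRT8 (9.37 and 9.25, 1 of 2 probes), the muscle filament gene DES (9.63 and 9.23), APOA1 (5.90 and 5.75) and CDH5 (5.45 and 5.58) were the others. Epithelial and stromal defining genes such as EPCAM (1.17 and 1.86), CDH1 (1.22 and 1.29) and COL1A1 (1.11 and 1.23) were not well above background. Whether bright single members of these lists reflect transcripts of the named genes or binding of other RNA to their probes was not tested.

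Most genes of the KMT2A fusion target list were expressed, and the part of the fusion in their signals was not tested. Of 26 measured genes that KMT2A fusions are known to activate, 25 were expressed and 12 were in the top 25%, at a median percentile of 69.9. MYB again led, followed by CDK6, a kinase of the G1 phase (14.00 and 14.05), and SOCS2, a cytokine signalling inhibitor (14.03 and 13.96). MYC gave 13.78 and 13.65 with its brighter probe, while the other (2.91 and 2.29) was not expressed. PBX3, a HOX cofactor gene, gave 12.51 and 12.57, and MEF2C 11.60 and 11.53. Across the HOXA cluster the signals were 11.19 and 11.01 for HOXA10, 10.46 and 10.54 for HOXA11, 7.22 and 7.38 for HOXA7, 6.39 and 6.16 for HOXA5, 6.19 and 5.96 for HOXA6, 5.89 and 6.26 for HOXA4 and 4.64 and 4.05 for HOXA3. MEIS1, the usual partner of HOXA9, was the 1 member not called, with 4.20 and 2.63 for its brighter probe, which passed in experiment 1 alone, and 1.16 and 1.30 for the other.

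Genes of the KMT2A complex and its fusion partners were expressed in 19 of 19 cases, 7 in the top 25%, with a median percentile of 68.3. The elongation factor gene MLLT1 (13.65 and 13.74), WDR5, a core subunit of the methyltransferase complex (13.43 and 13.69), and the chromatin tether gene PSIP1 (12.83 and 12.87) led, and DOT1L gave 9.95 and 10.63. KMT2A has 4 probes, which gave 11.22 and 11.45 at chr11:118348856-118348915, 4.45 and 4.58 at chr11:118361998-118362491, 6.94 and 6.89 at chr11:118362577-118362636 and 7.38 and 7.13 at chr11:118395871-118395930. MLLT3 gave 7.41 and 7.47 at chr9:20346480-20346539 and 6.46 and 6.55 at chr9:20345191-20345250. Every one of these 6 probes was well above background on both arrays. The part of the fusion transcript in these signals was not tested, and signals of different probes were not compared.

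Of 34 genes that are recurrently mutated in AML, 32 were expressed and 13 were in the top 25%. NPM1, for nucleophosmin, gave 17.19 and 17.27, CEBPA is shared with the lineage list, and the splicing factor gene SRSF2 gave 15.45 and 15.52. NRAS gave 10.33 and 10.19. KIT and KDM6A were not expressed. KDM6A, a histone H3K27 demethylase gene on chromosome X, gave 0.94 and 0.94 with the probe at chrX:44971035-44971094, among the dimmest 1% of genes. Its other probe, at chrX:44971784-44971843, gave 1.25 in experiment 1. In experiment 2 the scanner software marked that spot as an outlier, and it would have read 7.19. KDM6A stood at percentile 7.8 on the array of experiment 1 alone, at 3.6 with normexp background correction and at 30.9 in the deposited table.

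The 9p21 region, which holds the cell cycle inhibitor genes CDKN2A and CDKN2B, the methionine salvage gene MTAP and the type I interferon genes, held a run of listed genes that were not expressed. Of 25 measured genes 11 (44.0%) were expressed, against 71.6% of all measured genes, with 1 in the top 25% and a median percentile of 25.8. The list includes many interferon genes, and the part of gene family in this share was not tested. The looser flag passed 17. From the telomeric side, MLLT3, FOCAD (12.71 and 12.67) and HACD4 (9.59 and 9.34) were expressed. The next listed genes, IFNB1 (3.10 and 3.60), IFNW1 (1.51 and 1.60), IFNA21 (4.19 and 1.67), KLHL9 (4.00 and 3.20), IFNA6 (1.02 and 2.93), IFNA2 (1.62 and 2.17), IFNA8 (1.02 and 1.02) and IFNE (1.38 and 1.44), were not, though IFNA21 and KLHL9 passed in experiment 1 alone. Among them lies a probe that the files assign to IFNA4, left unnamed by the rule for symbols, and it was well above background (4.97 and 5.02).

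MTAP, a gene that most tissues use, was not well above background with any of 3 probes. They gave 1.36 and 1.09 at chr9:21802766-21815476, 0.94 and 0.94 at chr9:21837969-21854648 and 0.97 and 0.98 at chr9:21865830-21865889, all on the log2 scale. CDKN2B gave 1.05 and 1.07. CDKN2A gave 8.01 and 8.0 with the probe at chr9:21968039-21968098 and was not well above background with the probe at chr9:21970901-21970960 (2.15 and 2.96). DMRTA1 was not expressed either (3.12 and 2.30).

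On the centromeric side the calls returned, with ELAVL2 at 5.20 and 5.21, TUSC1 at 9.41 and 9.39, CAAP1 at 8.67 and 8.76, PLAA at 9.34 and 9.35, IFT74 at 7.07 and 7.36, MOB3B at 3.60 and 4.35 through 1 of 3 probes, and ACO1 at 9.99 and 10.03. LRRC19 (2.52 and 2.59), TEK (1.11 and 1.10) and EQTN (1.81 and 1.86) were not well above background there. Features left unnamed were also well above background between CDKN2B and ELAVL2. The one at chr9:22155709-22155768 gave 14.33 and 14.36, and the others gave 6.93 and 6.38, 6.31 and 6.25, and 9.40 and 9.69. Expression arrays do not measure DNA copies, and the part of copy number in these signals was not tested.

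**Figure D2:**
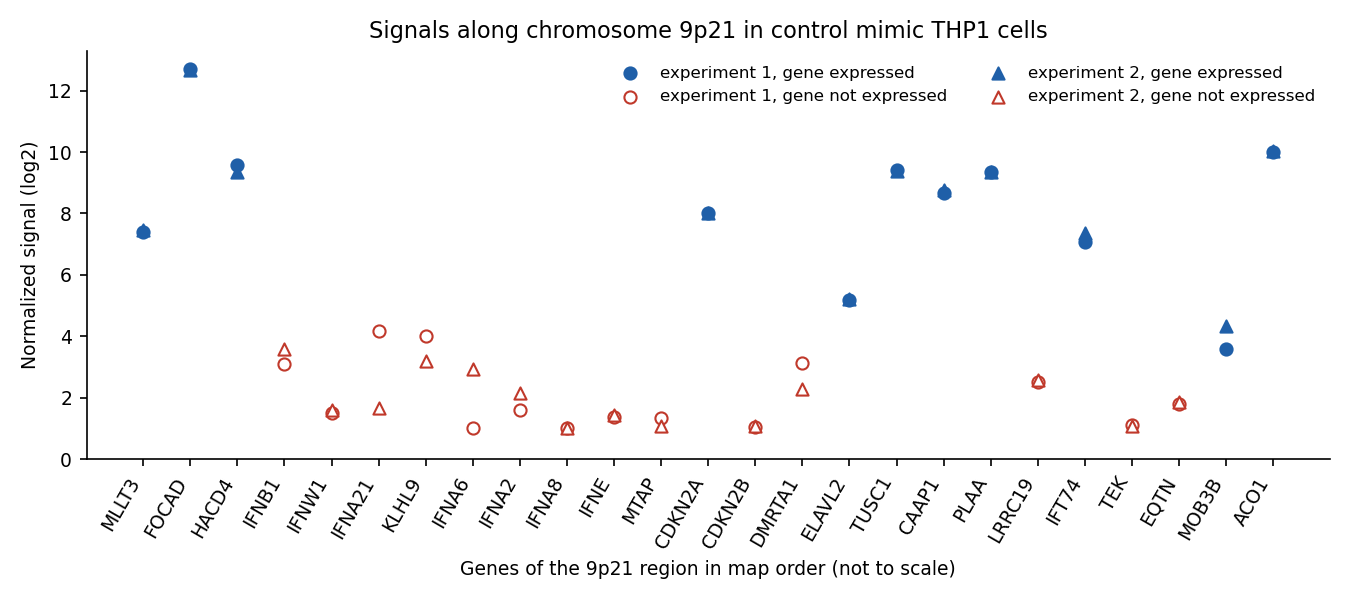
Normalized log2 signal of the brightest probe of 25 genes of chromosome 9p21 in map order, from MLLT3 on the telomeric side to ACO1, for experiment 1 (circles) and experiment 2 (triangles). Open symbols mark genes not expressed, which run from IFNB1 to MTAP and also include CDKN2B, DMRTA1, LRRC19, TEK and EQTN, with CDKN2A expressed at 8.01 and 8.0.

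Antigens followed in AML therapy were expressed in 25 of 29 cases, 10 of them in the top 25%. After CD33 came the TNF family ligand gene CD70 (13.19 and 13.86) and FUT4, the enzyme that makes the CD15 epitope (13.30 and 13.36). CD47, the inhibitor of phagocytosis, gave 12.98 and 13.13, and IL1RAP 10.05 and 10.07. Not well above background were CD274, for PD-L1 (1.91 and 2.86), CD7 (2.24 and 1.53), CD96 (1.41 and 1.44) and HAVCR2, for TIM-3 (1.25 and 1.38).

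Cells of these cultures expressed the genes of cycling. Of 28 proliferation genes 28 were expressed and 25 were in the top 25%, at a median percentile of 91.6. The replication helicase genes MCM7 (16.69 and 16.76) and MCM3 (15.15 and 15.27) and the thymidylate synthase gene TYMS (15.50 and 15.47) led. Of 19 D-type cyclins, CDKs and CDK inhibitors, 18 were expressed and 8 were in the top 25%. CDK6, CDKN2C, for the inhibitor p18 (13.84 and 13.91), and CDK4 (13.77 and 13.86) led, and CDKN2B was the 1 not expressed. Among the D-type cyclins, CCND3 gave 13.62 and 13.57, CCND1 6.09 and 6.07 and CCND2 4.46 and 4.06.

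Apoptosis regulators were expressed in 26 of 27 cases, with 15 in the top 25%. BIRC5, for survivin (14.92 and 14.96), DIABLO, whose product blocks inhibitors of apoptosis (14.49 and 14.58), and the BH3-only gene BID (14.39 and 14.36) led. The antiapoptotic genes BCL2 (11.84 and 11.81), MCL1 (10.83 and 11.62) and BCL2L1 (7.20 and 7.37) were expressed, and HRK, a BH3-only gene of neurons, was not (1.76 and 2.36).

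Immune sensing genes were present at middle ranks. Of 22 Toll-like receptor and adaptor genes 17 (77.3%) were expressed, near the 71.6% of all measured genes. The list had 5 members in the top 25% and a median percentile of 47.3. TLR2, the receptor for bacterial lipoproteins, gave 12.69 and 12.47, the kinase gene IRAK1 12.51 and 12.63, and the adaptor gene MYD88 11.58 and 11.43. TLR4, the LPS receptor gene, gave 8.89 and 8.93 and its partner LY96 7.21 and 7.62. The endosomal receptor genes TLR3 (0.93 and 0.93), TLR7 (1.45 and 1.70) and TLR8 (1.35 and 1.53) were not well above background, nor were TLR10 (1.00 and 0.99) and LBP (1.98 and 3.79).

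Of 20 sensors of nucleic acid and their partners 17 were expressed, 6 in the top 25%, at a median percentile of 53.5. STING1, the adaptor of the cytosolic DNA pathway, gave 14.98 and 14.75, its upstream enzyme gene CGAS 11.09 and 10.71, the kinase gene EIF2AK2 11.47 and 11.49, and IRF7 11.60 and 11.19. TLR3, ZBP1 (1.41 and 1.44) and the DNA sensor gene AIM2 (1.16 and 1.20) were not expressed. Of 19 inflammasome genes 18 were expressed, again except AIM2, and 6 were in the top 25%. The adaptor gene PYCARD gave 15.41 and 15.34, CASP4 13.86 and 13.93 and NLRP3 13.28 and 13.21, while the product genes IL1B (7.24 and 7.19) and IL18 (8.51 and 8.70) ranked at percentiles 46.4 and 55.3.

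Cytokine genes reached the expressed call at a share near that of all genes. Of 29 measured genes 19 (65.5%) were expressed, against 71.6% of all measured genes. The list had 4 members in the top 25% and a median percentile of 42.7 (43.6 and 36.6 on the single arrays). MIF, a constitutive inflammatory factor, was bright (16.95 and 17.07), and TNF (12.44 and 12.45) and TNFSF13B, for the B cell survival factor BAFF (12.45 and 12.38), followed. Not well above background were IL6 (2.47 and 2.05), IL10 (2.64 and 2.61), IL12B (1.37 and 1.38), IL1A (1.14 and 1.54), IL15 (2.39 and 2.05), IFNB1, IFNG (1.23 and 1.56), CSF2 (1.15 and 1.14) and CSF3 (1.09 and 2.17). LIF (3.87 and 3.43) passed in experiment 1 alone.

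Of 27 chemokine genes 13 (48.1%) were expressed, against 71.6% of all measured genes, and 2 were in the top 25%. They were CCL3 (12.39 and 12.25) and CCL5 (12.41 and 12.12), attractants of T cells and monocytes. CCL24 gave 10.62 and 10.70, CCL23 10.83 and 10.36, CXCL5 7.80 and 7.79, CCL20 6.71 and 7.12, CXCL2 6.62 and 6.69, CXCL16 6.62 and 6.44, and CXCL1 5.92 and 6.48. CXCL12, CCL17, CCL19 and CXCL10 lay between percentile 30.1 and 36.4. CXCL8, for the neutrophil attractant interleukin 8, was not well above background (1.65 and 2.28), and CCL2 (4.25 and 3.58) passed in experiment 1 alone.

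Among 18 chemokine receptor genes 11 (61.1%) were expressed, against 71.6% of all measured genes. The 2 in the top 25% were CXCR4, the receptor that holds cells in the marrow niche (14.19 and 13.93), and CCR2. CCR1 followed with 10.87 and 10.79. CCR3 was bright in experiment 1 and dim in experiment 2 (8.72 and 3.76) and failed the call, as did CXCR1 (3.66 and 3.23), which also passed in experiment 1 alone. CCR4 (1.79 and 1.95), CCR9 (1.58 and 1.67), CXCR5 (1.10 and 1.08), CXCR6 (1.24 and 1.34) and ACKR3 (0.98 and 1.01) were not well above background.

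Interferon-stimulated genes were expressed in 28 of 28 cases, but 4 reached the top 25% and the median percentile was 52.7. They were STAT2 (13.66 and 13.36), BST2 (12.13 and 12.17), ISG15 (12.02 and 11.74) and IRF7. Other members stood lower, with RSAD2 at 4.35 and 4.22, IFI44L at 3.93 and 4.35 and IFI27 at 5.18 and 4.86. These values come from cells that had received a double-stranded RNA mimic, and no array of untransfected cells was analysed here.

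HLA class I and antigen processing genes ranked high. Of 18 measured genes 18 were expressed and 14 were in the top 25%, at a median percentile of 93.9. The chaperone gene CALR gave 17.41 and 17.51, B2M, the shared light chain gene, 17.08 and 17.07, and HLA-G 16.60 and 16.67. HLA genes are near copies of each other, so that their probes may share signal. HLA class II genes were expressed in 14 of 15 cases with 3 in the top 25% and a median percentile of 59.3. The transcription factor genes RFXANK (14.32 and 14.18) and RFX5 (12.64 and 12.61) and HLA-DRB5 (12.72 and 12.04) led. The master regulator gene CIITA gave 5.48 and 5.31, and HLA-DQA1 passed in experiment 2 alone (2.49 and 3.64). Several class II genes were brighter in experiment 1, such as HLA-DRA (9.81 and 8.72), HLA-DPA1 (8.63 and 7.51) and HLA-DPB1 (9.67 and 8.56).

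Effector genes of phagocytes varied by component. Of 12 genes of NADPH oxidases 8 (66.7%) were expressed, near the 71.6% of all measured genes. The 4 in the top 25% were led by the GTPase gene RAC2 (15.44 and 15.22), the membrane subunit gene CYBA (14.93 and 14.81) and RAC1 (13.73 and 13.67). The catalytic subunit gene CYBB gave 9.46 and 8.92. The nonphagocyte oxidase genes DUOX1 (4.23 and 2.85), DUOX2 (2.83 and 2.79), NOX3 (0.95 and 2.88) and NOX4 (1.26 and 1.95) were not expressed, DUOX1 having passed in experiment 1 alone, while NOX1 passed at 3.73 and 3.67. FCGR1A and FCGR1B were not analysed here. Of 12 genes of Fc receptors and their signalling partners 7 (58.3%) were expressed and 4 were in the top 25%. They were FCGRT, for the neonatal Fc receptor (15.35 and 15.19), the kinase gene SYK (13.00 and 12.72), the signalling chain gene FCER1G (12.79 and 12.57) and FCGR2A (11.74 and 11.75). Not expressed were FCGR3A, FCGR2B (1.10 and 1.17), FCER1A (1.13 and 1.21), FCER2 (3.25 and 3.30) and FCRL5 (1.69 and 3.08), of which FCER2 passed in experiment 1 alone. Of 22 complement genes 13 (59.1%) were expressed, and CFD was the 1 in the top 25%. After it came the regulator genes CD55 (9.71 and 9.46) and CD46 (9.16 and 8.87). The C1q genes C1QA (2.69 and 2.67), C1QB (2.31 and 0.93) and C1QC (1.26 and 2.47) were not well above background, and neither were C5AR1 (1.04 and 1.09), C6 (1.03 and 1.08), C9 (1.33 and 1.34), CFB (2.95 and 1.18), CR1 (1.23 and 1.21) and CD59 (2.90 and 3.19).

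**Figure D3:**
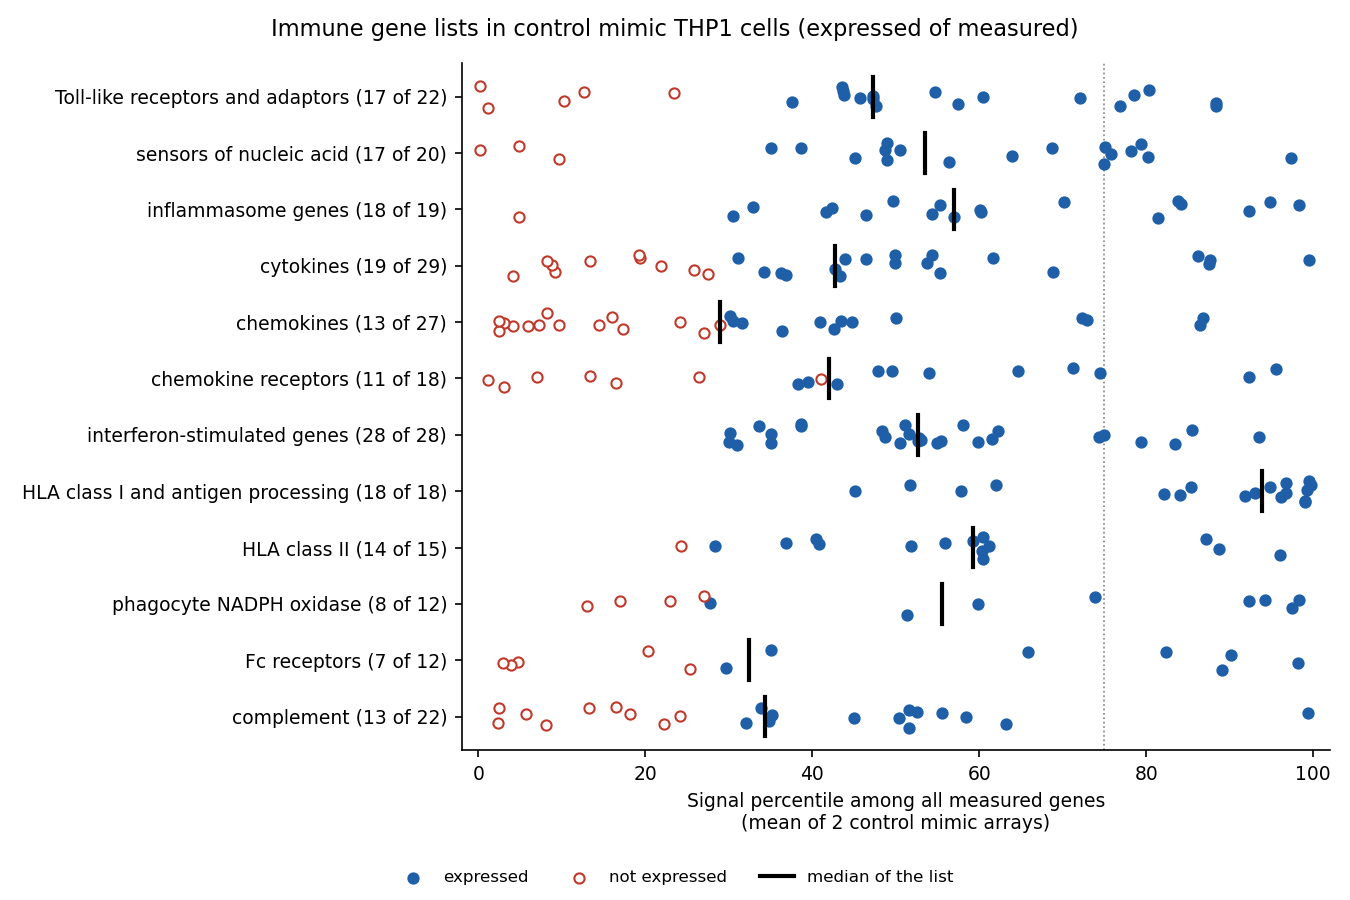
Signal percentile of each measured gene (points, mean of 2 control mimic arrays) in 12 immune lists, with filled points for expressed genes, open points for the others, a bar at the list median and a dotted line where the top 25% begins. The HLA class I list has a median of 93.9, the interferon-stimulated list 52.7 with 28 of 28 expressed, and the chemokine list 28.9.

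Core metabolism ranked high and nearly without gaps. The 20 glycolytic genes used in most cells were expressed, 14 in the top 25%, at a median percentile of 96.8. LDHB, for a lactate dehydrogenase chain (17.20 and 17.34), GAPDH (16.70 and 16.75) and ALDOA (16.40 and 16.20) led. The glucose transporter gene SLC2A1 gave 11.82 and 11.83 and SLC2A3 3.81 and 4.24. The pentose phosphate pathway, which supplies NADPH and ribose, had 8 of 8 genes expressed and 8 in the top 25%, at a median percentile of 97.8. TKT, for transketolase, gave 16.74 and 16.74, its relative TKTL1 16.34 and 16.22, and TALDO1 15.60 and 15.78. Of 26 genes of pyruvate dehydrogenase and the citric acid cycle, 26 were expressed and 17 were in the top 25%, at a median of 86.4. The malate dehydrogenase genes MDH1 (15.93 and 16.04) and MDH2 (15.13 and 15.15) and the citrate synthase gene CS (15.10 and 15.22) led.

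Biosynthetic pathways followed. Of 21 genes of purine and pyrimidine synthesis 21 were expressed and 15 were in the top 25%, led by IMPDH1 (15.81 and 16.01), APRT (15.37 and 14.37) and CTPS1 (14.50 and 14.54). Of 20 genes of serine, glycine and one-carbon metabolism 17 were expressed and 10 were in the top 25%, with TYMS, SHMT2 (13.93 and 13.98) and GCSH (13.70 and 13.84) at the top. Those not expressed were the liver genes MAT1A (2.99 and 2.56) and ALDH1L1 (2.46 and 2.18) and the glycine cleavage gene GLDC (1.48 and 1.36).

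Of 26 genes of glutamine, arginine and polyamine metabolism 20 (76.9%) were expressed, near the 71.6% of all measured genes, and 11 were in the top 25%. The polyamine genes ODC1 (15.53 and 15.53) and AMD1 (14.80 and 14.83) and the transaminase gene GOT2 (13.91 and 13.96) led. The nitric oxide synthase gene NOS2 (1.89 and 2.35) and ARG1 (3.05 and 1.57), which mark opposed macrophage states in mice, were not well above background, nor were NOS1 (3.40 and 2.83), GPT (2.64 and 2.59) and GLS2 (2.25 and 2.69). OTC (1.42 and 4.63) passed in experiment 2 alone.

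Cholesterol and fatty acid genes were mostly expressed. Of 32 cholesterol genes 29 were expressed and 19 were in the top 25%, at a median percentile of 87.6. FDPS, which makes farnesyl diphosphate (16.23 and 15.91), EBP (15.26 and 15.05) and ACAT2 (15.22 and 14.92) led. The sterol exporter genes ABCA1 (5.83 and 4.40 with its brighter probe) and ABCG1 (4.44 and 4.17) ranked low. The other ABCA1 probe (3.32 and 2.08) was not expressed. Nor were the liver gene CYP7A1 (2.14 and 2.33) and the muscle gene IDI2 (1.48 and 1.53). Of 29 fatty acid genes 26 were expressed and 16 were in the top 25%, led by ACADVL (14.47 and 14.47), HADHB (14.37 and 14.33) and the fatty acid synthase gene FASN (14.52 and 14.17). ACADL (1.57 and 1.71) was not expressed, and PPARGC1A (3.80 and 3.45) and ELOVL6 (3.67 and 2.72) passed in experiment 1 alone.

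Iron and heme genes were expressed in 22 of 23 cases, 12 in the top 25%. The ferritin genes FTL (16.92 and 16.97) and FTH1 (15.33 and 15.66) and the transferrin receptor gene TFRC (14.88 and 15.02) led. The heme oxygenase gene HMOX1 gave 5.71 and 6.85, and HFE passed in experiment 1 alone (4.05 and 3.93). As a contrast, 6 of 25 liver metabolic enzyme genes were expressed and 0 were in the top 25%, at a median percentile of 21.5. The looser flag passed 16, and 10 were well above background on at least 1 array. The 6 were HGD (8.92 and 8.91), CPS1 (6.36 and 6.50), CYP1A2 (5.50 and 5.99), GNMT (5.35 and 5.62), CYP4A11 (4.56 and 4.44) and HPD (3.79 and 3.73). Of 23 tissue-restricted isoenzymes of glucose metabolism 12 were expressed and 3 were in the top 25%. The liver and muscle glucose transporter genes SLC2A2 (1.23 and 1.33) and SLC2A4 (1.16 and 1.19) and the glucose-6-phosphatase gene G6PC1 (1.88 and 1.08) were not well above background.

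Steps that can be served by several isoenzymes were examined gene by gene. Of 18 steps, 8 had exactly 1 expressed isoenzyme, 9 had every isoenzyme examined expressed, and 33 of 42 isoenzymes were expressed. Testis forms were not well above background where the somatic form was bright, with GAPDHS at 1.07 and 1.11, PGK2 at 0.95 and 0.97 against 16.15 and 16.23 for PGK1, and PDHA2 at 1.39 and 1.60 against 14.16 and 14.33 for PDHA1. LDHC passed at 4.43 and 4.74 beside LDHA (15.23 and 15.51). Liver and muscle forms that failed the call were GYS2 (0.94 and 0.94), PYGM (3.06 and 4.31), FBP2 (2.40 and 1.18), PCK1 (1.42 and 2.67), MAT1A and ARG1, of which PYGM passed in experiment 2 alone.

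Other forms of the same steps were expressed, liver forms among them, with GYS1 at 11.64 and 11.78, PYGL at 13.90 and 13.64, PYGB at 12.10 and 11.97, FBP1 at 9.16 and 8.75, PCK2 at 8.10 and 8.22, MAT2A at 13.18 and 13.18 and ARG2 at 5.36 and 5.46. The hexokinase genes examined passed, HK1 at 9.39 and 9.60, HK2 at 9.88 and 9.81 through 1 of 2 probes and HK3 at 4.50 and 4.97. The phosphofructokinase genes PFKP (13.42 and 13.61), PFKL (11.46 and 11.88) and PFKM (10.13 and 10.33) were expressed, and so was ALDOC (9.96 and 9.45) beside ALDOA.

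Further down glycolysis, PGAM1 gave 14.33 and 14.33 and PGAM2 4.85 and 4.97. ENO1 gave 15.80 and 16.07, ENO3 9.15 and 8.78 and ENO2 6.78 and 6.64. PKM, for the pyruvate kinase of proliferating cells and muscle, gave 14.93 and 14.93, and the liver and red cell form PKLR 4.17 and 4.12. In fat metabolism CPT1A gave 10.76 and 10.75, CPT1B 10.35 and 10.17, CPT1C 6.83 and 6.42, ACACA 12.78 and 12.29 and ACACB 10.96 and 11.25.

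**Figure D4:**
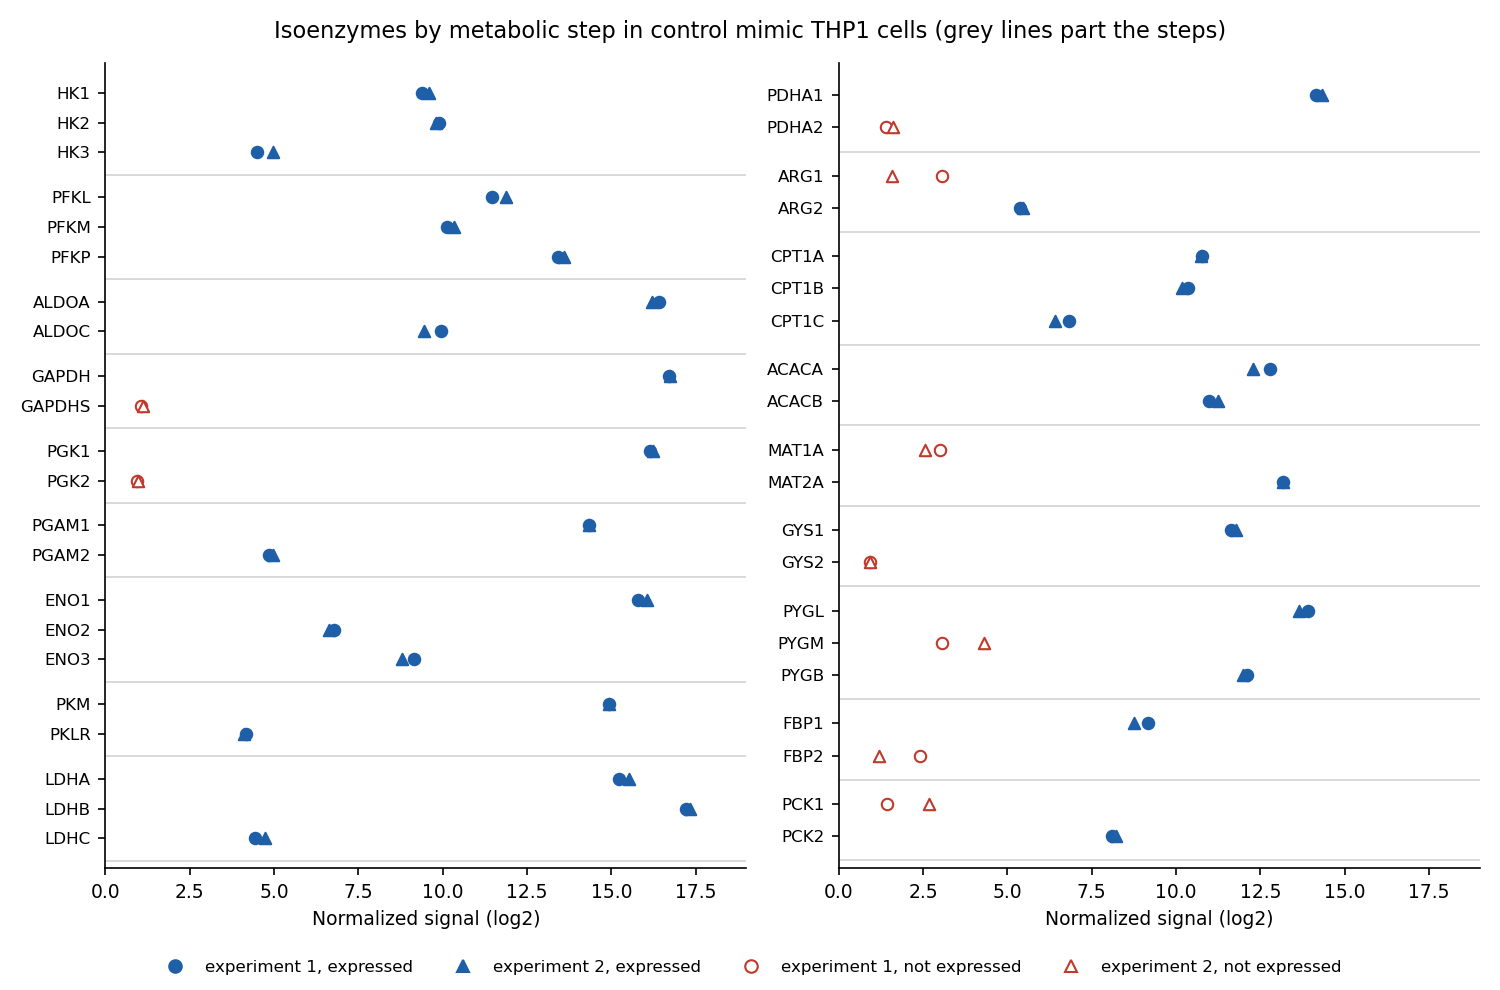
Normalized log2 signal of 42 isoenzymes in 18 metabolic steps, parted by grey lines, in experiment 1 (circles) and experiment 2 (triangles), with open symbols for genes not expressed. In 8 steps a single isoenzyme was expressed, as for PGK1 at 16.15 and 16.23 beside PGK2 at 0.95 and 0.97.

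Promoter sequence was compared with the calls over genes matched by symbol to exactly 1 RefSeq window of 300 bases, 250 before and 50 after the start, in GRCh38.p14. This left 11210 genes, since 3960 measured genes had several windows and 4462 were not matched. Expressed genes had a median of 26 CG pairs in the window and a GC content of 65.0%, and genes not expressed 7 CG pairs and 55.3%. The share of expressed genes was 34.5% of 2155 genes with 0 to 5 CG pairs, 53.6% of 895 with 6 to 10, 75.1% of 1852 with 11 to 20, 85.6% of 3025 with 21 to 30 and 85.7% of 3283 with 31 or more. The share thus rose up to about 21 CG pairs and was level beyond.

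The GC box letters GGGCGG stood in 68.6% of promoters of expressed genes and 37.9% of the others, against 59.9% of all matched promoters. TATAAA stood in 6.78% and 17.9% (9.94% of all), GGAAGT in 28.5% and 18.2% (25.6% of all), CCAAT in 37.7% and 35.2% (37% of all) and GAGGAA in 27.4% and 28.2% (27.6% of all). TTGCGCAA stood in 16 of 11210 promoters. Expressed genes also had the higher GC content, and its part in these shares was not tested.

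Among the lists, GAGGAA stood in 8 of 11 matched promoters of monocyte surface genes, in 6 of 13 of granule genes and in 7 of 9 of mast cell, eosinophil and basophil genes. Its share was above that of the granule genes in other lists too, with 4 of 6 stem and progenitor, 6 of 10 T and NK cell, 5 of 8 dendritic cell, 6 of 10 HLA class II and 6 of 12 cytokine promoters. The same held for 3 of 6 Fc receptor and 3 of 6 pentose phosphate promoters. CCAAT stood in 9 of 10 matched HLA class II promoters, whose Y box contains these letters, in 11 of 12 of one-carbon genes and in 12 of 16 of proliferation genes. TATAAA stood in 9 of 18 chemokine and 8 of 12 liver enzyme promoters. The numbers are small and the matches are counts of letters, not of bound sites.

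The 2 arrays agreed closely. Over 22421 expressed probes the median difference was 0.136 on the log2 scale, and 270 probes (1.2%) differed by more than 1. The difference shrank with signal, from a median of 0.22 in the lowest 25% of expressed probes to 0.095 in the highest 25%. In 736 expressed probes printed 10 times, the median SD of the 10 spots was 0.064 and 0.078 on the arrays. The median SD between the arrays was 0.076 for the means of those spots, a different quantity from the SD of single spots. The number of arrays limits the precision, and whether the experiments differ in batch or in biology cannot be told apart.

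Single genes departed from this. CCM2L, an endothelial signalling gene, gave 13.85 and 8.53, a 39.9-fold difference, through 1 of 2 probes. IL32, for a cytokine of leukocytes, gave 7.91 and 5.16 with its brighter probe and 4.87 and 4.51 with the other. HR (9.19 and 6.52), HCN2 (10.16 and 7.93) and LRRN3 (6.99 and 4.92) were also brighter in experiment 1. BPIFA1 (3.95 and 6.58), PTPN5 (4.43 and 6.99), SUZ12P1 (14.95 and 17.28), WDR93 (4.50 and 6.83) and DOHH (7.19 and 9.50) were brighter in experiment 2. These are the 10 expressed genes with the greatest differences, from 4.21-fold for LRRN3 upward, and each value rests on 1 probe.

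Whole lists also leaned to one experiment. Of the expressed genes 49.5% were brighter in experiment 1. Among expressed cholesterol genes the count was 25 of 29, with a median difference of 0.31 on the log2 scale, 0.88 for DHCR7 (14.14 and 13.26) and 1.11 for SREBF1 (12.95 and 11.84), a master regulator of lipid synthesis. Fatty acid genes (23 of 26), interferon-stimulated genes (22 of 28) and HLA class II genes (12 of 14) leaned the same way. Their median differences were 0.10, 0.17 and 0.24. So did genes of granule and secretory proteins (13 of 17), monocyte surface proteins (18 of 26) and NADPH oxidases (7 of 8). The medians there were 0.16, 0.18 and 0.08. Of the proliferation genes 4 of 28 were brighter in experiment 1, with a median difference of -0.14. Other lists leaned to experiment 2 as well. Brighter in experiment 1 were 5 of 20 glycolytic, 5 of 19 KMT2A complex partner and 5 of 20 glutamine, arginine and polyamine genes. The counts were 7 of 26 for citric acid cycle, 6 of 21 for purine and pyrimidine and 5 of 17 for one-carbon genes. They were 5 of 17 for Toll-like receptor and adaptor genes and 3 of 13 for RT-qPCR reference genes. These lists were singled out after their values were seen, and with 1 array per experiment the lean could not be tested.

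**Figure D5:**
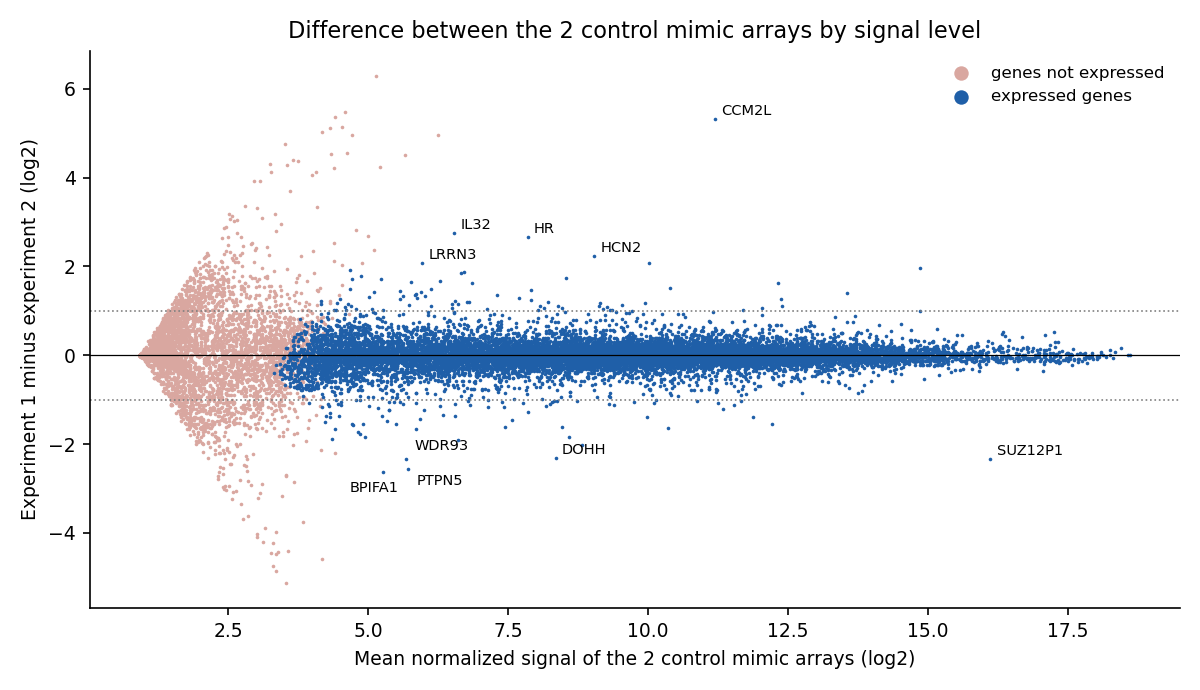
Difference between the control mimic arrays (experiment 1 minus experiment 2, log2) against the mean log2 signal of each measured gene, in blue for expressed genes and in pale red for the others, with dotted lines at a difference of 1. Over expressed probes the differences narrow as the signal rises, and CCM2L stands apart with 13.85 and 8.53.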

How the data were processed

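Per the labels, control mimic THP1 cells of 2 experiments gave the 2 single-dye Agilent arrays described. The authors deposited scanner files made with Agilent Feature Extraction (version 10.5.1.1 in the submitters' notes, 10.7.3.1 in the file headers), whose intensity values are background-subtracted within the array, and a table of log2 values that rank each array's features identically (lowest Spearman correlation 1).

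From these, log2 of the processed intensity of 43118 non-control spots was taken. The spots marked as outliers (232 and 240) were left out, the 2 arrays were quantile normalized with limma 3.58.1 in R 4.3.3, and spots were averaged by probe. Further steps used Python 3.11.15 with pandas 2.3.3. No spot was saturated. The median processed intensity was 111.2 and 100.4, and 69.3% and 66.6% of probes were well above background. No test was run. The functions were tested on simulated data.

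Probe coordinates are those of hg19 in the files. Symbols came from RefSeq GRCh38.p14 for 24731 probes by accession and from the files for 1023. Probes whose accessions belong to several genes (903) or with no current symbol (7470) were left unnamed. Of 5045 genes with several probes, 806 had probes that disagreed. Named are the line's markers, the 20 brightest genes, in each of 43 lists the 3 brightest expressed members and the members that go against most of the list, the isoenzymes, the 9p21 genes and the 10 greatest differences between arrays, with further members chosen after their values were seen. The part described, its members and the lists were chosen with earlier results of these data known. Alternatives were another detection flag, 1 array, marked spots kept, other rules over probes, normexp (offset 50), 75th percentile scaling, quantile normalization over 4 arrays, the deposited table and leaving out each array. Some genes that this rule names are not reported here, and the isoenzyme counts leave them out.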

Additional observations from a re-analysis of the deposited data

How the results depend on the processing

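The number of expressed genes, 14059, ranged from 13253 where every probe of a gene had to pass to 16174 with the flag for a positive and significant signal, and from 14230 to 14640 on a single array. The number of expressed probes ranged from 22421 to 26751, and the median difference between the arrays was 0.139 with 75th percentile scaling. That flag raised 4 of 43 list counts by more than 1.5 times, to 9 stem and progenitor, 16 T and NK cell, 17 9p21 and 16 liver enzyme genes, and liver enzyme genes numbered 10 where 1 array sufficed. These changes follow from the looser rule. No other list count moved that far under the alternatives run, single arrays included. List medians moved by -6.2 to 4.1 percentile points with the median over probes, -6.1 to 4.3 on single arrays, -3.4 to 1.5 with normexp and at most 0.7 with the other scalings or the deposited table. With the outlier spot kept in the deposited table KDM6A stood at percentile 30.9, against 0.3 here. No paired analysis was possible because a single group was described.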
